A study of Homo sapiens with 26 samples.

Results

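The H1047R and E545K lines of LoVo, a human colorectal cancer cell line, were compared after treatment with palbociclib plus erlotinib. The comparison used the 2 libraries labelled H1047R and the 2 libraries labelled E545K that received both drugs, which are 4 of the 26 RNA sequencing libraries of the series and 4 of the 8 of its second expression table. All genes of that table entered it: 17734 were listed, and the 12463 with at least 1 FPKM in at least 2 of the 8 libraries were tested. FPKM is a count of fragments scaled by transcript length and by the mapped fragments of the library.

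The series asks how mutations of PIK3CA change the response of colorectal cancer cells to palbociclib, which was given to induce senescence, and what erlotinib adds in the mutant lines. Both lines carry a PIK3CA mutation introduced into LoVo with a lentiviral vector, both were grown in DMEM with 10% fetal bovine serum, and both received 0.5 µM palbociclib and 4 µM erlotinib for 48 hours. The other 4 libraries of the table, 2 per line, hold the same lines under 0.5 µM palbociclib alone, for a time that is not given in the sources used here. A first table of 18 libraries holds both lines and wild-type LoVo in DMSO, in palbociclib for 72 hours and in conditioned medium of senescent cells. No wild-type library and no untreated library belongs to the second table, so the values below set one mutant line against the other. The series text names 1 clone per mutation for the palbociclib experiment and none for the second table, and with 1 line per mutation, mutation and clone cannot be told apart. The labels do not say whether the 2 libraries of a group came from separate cultures, so the p-values measure only the spread between these libraries.

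PIK3CA encodes the catalytic subunit of a PI3 kinase, which makes a lipid signal at the membrane that activates AKT. The E545K change lies in the helical domain and the H1047R change in the kinase domain, and both raise the activity of the enzyme. Palbociclib inhibits CDK4 and CDK6, the kinases that phosphorylate RB and so release E2F to switch on genes of DNA replication. Erlotinib inhibits the tyrosine kinase of the EGF receptor, which feeds the RAS and ERK cascade and PI3 kinase. Cells that leave the cell cycle for good may become senescent, a state known for CDK inhibitor genes such as CDKN1A and for the secretion of cytokines, growth factors and proteases.

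The lines differed widely under the drug pair. Of the 12463 genes tested, 2485 (19.9%) were higher in H1047R and 4120 (33.1%) were lower, 6605 (53%) in all, with limma at an adjusted p below 0.05. Differences are given as log2(FPKM + 1) of H1047R minus E545K, with SE the standard error, and folds as ratios of mean FPKM. The pseudocount of 1 makes log2 differences smaller for genes of low level. Most differences were small: their median absolute size was 0.25 over all genes tested. A total of 249 genes were called with a log2 difference of at least 1, against 416 at -1 or lower. The median over all genes was -0.08, so the split leaned to lower values: 37.6% of the called genes were higher as scaled by the authors, and 50.1% (3274 higher and 3258 lower) after quantile normalization. List medians below are therefore to be read against -0.08, and list counts against the shares of all genes, 19.9% higher and 33.1% lower. The 2 libraries of a line correlated across genes at 0.9973 in E545K and 0.9968 in H1047R, and libraries of different lines at 0.952 to 0.9547. In 10242 genes (82.2%) both libraries of one line lay above both of the other.

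**Figure D1:**
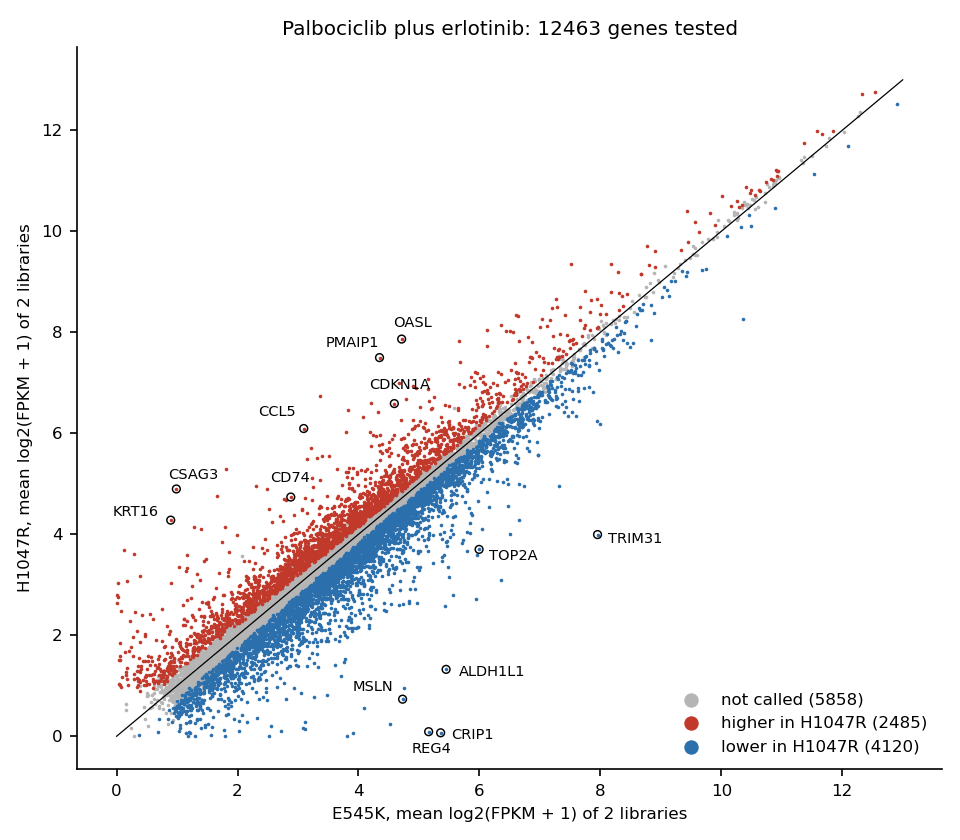
Each point is 1 of the 12463 genes tested, with the mean log2(FPKM + 1) of the 2 E545K libraries on the x axis and of the 2 H1047R libraries on the y axis, both under palbociclib plus erlotinib. Red points were called higher in H1047R (2485), blue points lower (4120) and grey points were not called; circled genes are named in the text, and the line marks equal levels.

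The libraries had the profile of colorectal epithelium in part. Of 10 epithelial markers, 7 were at 1 FPKM or more in all 4 libraries, among them EPCAM, CDH1, KRT8 and KRT18. KRT20, a marker of differentiated colon epithelium, was below 1 FPKM in all 4, and VIL1 and LGALS4 were below 1 FPKM in H1047R. Of 20 markers of fibroblasts, endothelium and immune cells, 18 were in the table and 14 were below 1 FPKM in all 4 libraries, with DCN, KDR and MS4A1 at 0. Their summed level was 54.9 to 61.2 FPKM in E545K and 73.3 to 77.1 in H1047R. Most of it was CD68, a lysosomal protein abundant in macrophages, at 48.4 and 42.3 FPKM in E545K and 64.5 and 68.9 in H1047R. Its part in the line differences was not tested.

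PIK3CA itself (chr3:179148126-179240093, GRCh38.p14) was lower in H1047R. It stood at 12.7 and 12.0 FPKM in E545K and 7.80 and 7.05 in H1047R (log2 difference -0.67, SE 0.0746, adjusted p = 0.000158). The values count all PIK3CA transcripts together, so they do not check which allele a library carries.

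The 15 genes furthest above E545K were a mixed set. CSAG3 and CXorf49B, 2 genes of the X chromosome with near-identical copies that make their values uncertain, led it. CSAG3, a cancer-testis antigen, read 1.06 and 0.91 FPKM in E545K and 29.1 and 28.5 in H1047R (3.91, SE 0.133, adjusted p = 2.9e-07). Near silence in one line set several others apart. ZNF22, a zinc finger protein, was at 0.33 and 0.11 FPKM in E545K against 11.4 and 11.0. FXYD2, a regulator of the sodium pump, was listed at 0 in both E545K libraries against 7.85 and 4.41. MAGEB17, EMP3 and the protease gene MMP7 were higher by 2.87, 3.11 and 2.78 on the log2 scale. KRT16, KRT14, OASL, PMAIP1, CCL5 and TIMP3 were also among the 15 and are described with their groups.

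Among the 15 genes furthest below E545K, several belong to the intestinal epithelium and to metabolism. CRIP1 (chr14:105486886-105488947), a small LIM protein abundant in intestine, read 41.3 and 38.8 FPKM in E545K and 0.10 and 0 in H1047R (-5.29, SE 0.0922, adjusted p = 1.36e-08). REG4 (chr1:119794017-119811460), a secreted lectin of intestinal endocrine and goblet cells, read 36.0 and 33.6 FPKM in E545K and 0.05 and 0.08 in H1047R (-5.07, SE 0.0763, adjusted p = 8.02e-09). In both genes the H1047R libraries were at or near 0. ALDH1L1, an enzyme of folate metabolism, was 28.4-fold lower, and TRIM31, a ubiquitin ligase of the gut, was 16.5-fold lower at 248 and 246 FPKM in E545K and 15.4 and 14.5 in H1047R. MSLN, the surface protein mesothelin, was at 26.0 and 25.1 against 0.60 and 0.73. The alarmin gene IL33 was at 26.6 and 25.1 against 0.75 and 1.14. RGS2, a brake on G protein signaling, and SLCO2A1, a prostaglandin transporter, were 10.8-fold and 10.9-fold lower. CSMD3, DOCK3, HSD17B2 and FXYD3 lay between -2.99 and -2.76, and CDH17 and CXCL11 are described below.

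Proliferation genes were lower in H1047R without exception in the lists for DNA replication and mitosis. Against 33.1% of all genes called lower, 37 of 37 replication genes were lower (median log2 difference -1.21) and 35 of 35 mitosis genes were lower (median -1.59). MKI67, the marker of cycling cells, read 27.6 and 27.6 FPKM in E545K and 5.53 and 5.29 in H1047R, a 5.1-fold difference (-2.16, SE 0.0549, adjusted p = 7.22e-08). In bulk RNA, fewer cells expressing these genes and less RNA per cell cannot be told apart. TOP2A, the topoisomerase of dividing cells, read 62.4 and 63.1 FPKM in E545K and 12.0 and 12.0 in H1047R. HMMR and CENPF, proteins of the spindle and the kinetochore, were 5.04-fold and 4.7-fold lower. The mitosis genes that differed least, TPX2 and CDC25C, were each at -0.96. Among replication genes, RRM2, the small subunit of ribonucleotide reductase, stood at 29.8 and 29.5 FPKM in E545K and 6.74 and 6.34 in H1047R (-2.02, SE 0.0993, adjusted p = 1.66e-06). GINS2 and MCM2, parts of the replicative helicase, were 4.35-fold and 2.96-fold lower, and MCM6, another helicase subunit, differed least at -0.57. In each gene of both lists both H1047R libraries lay below both E545K libraries, as the groups of no called gene overlapped.

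The promoters of these 2 lists were searched for letters known from cell cycle control. The mitosis list was searched for TTTGAA, the core of the cell cycle homology region bound by the DREAM and MuvB complexes. The replication list was searched for the E2F words TTTCCCGC, TTTGGCGC and TTTCGCGC. Both strands of the 250 bases before each gene's start were read, from RefSeq windows on GRCh38.p14. TTTGAA was in 17 of 29 mitosis genes with a window (58.6%), against 16.1% of the 27305 genes with a window and 11.9% of the 10201 tested genes with one. An E2F word was in 13 of 33 replication genes (39.4%), against 2.85% of all genes and 4.82% of the tested genes. A match describes letters in this window and is neither a shown site nor a cause. Shares of whole lists, here and below, count genes whatever their line difference, so they are no result about that difference. The stretches below come, for each motif, from up to 2 called genes in each direction with the largest difference and a match outside annotated exons, written 5′ to 3′ on the gene's strand, with the matched letters in capitals.
TOP2A: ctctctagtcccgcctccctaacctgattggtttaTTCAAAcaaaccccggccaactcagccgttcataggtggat
MKI67: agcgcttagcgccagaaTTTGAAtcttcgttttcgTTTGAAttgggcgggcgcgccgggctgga
PCNA: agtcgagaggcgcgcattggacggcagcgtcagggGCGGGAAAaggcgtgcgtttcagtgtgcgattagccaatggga
UHRF1: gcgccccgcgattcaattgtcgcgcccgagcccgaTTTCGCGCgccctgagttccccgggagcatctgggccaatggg
They lie at chr17:40418007-40418082 (minus strand) for TOP2A, chr10:128126424-128126487 (minus) for MKI67, chr20:5126639-5126716 (minus) for PCNA and chr19:4909949-4910026 (plus) for UHRF1. PCNA, the sliding clamp of DNA polymerase, stood at 61.4 and 63.2 FPKM in E545K and 25.2 and 23.6 in H1047R. UHRF1, which carries DNA methylation through replication, stood at 15.8 and 16.3 FPKM in E545K and 7.27 and 6.56 in H1047R. MKI67 holds 2 copies of TTTGAA in the stretch, and the TOP2A copy reads TTCAAA on the strand shown.

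The genes that set entry into S phase went both ways. Of 16 genes for cyclins D and E, their kinases, RB and E2F, 4 were higher and 8 lower in H1047R (median -0.40). RB1, which encodes the RB protein itself, was 2.16-fold higher, at 6.38 and 6.42 FPKM in E545K and 14.3 and 13.4 in H1047R (1.00, SE 0.114, adjusted p = 0.000175). CDK6, a target of palbociclib, was also higher, at 11.8 and 11.6 against 15.2 and 15.1. CDK4, the other target, was lower at 153 and 154 against 105 and 99.1 (-0.58, SE 0.0523, adjusted p = 4.84e-05). CCND1, cyclin D1, did not pass the test, with 123 and 126 FPKM in E545K and 122 and 122 in H1047R (-0.03, 95% interval -0.13 to 0.08, adjusted p = 0.64), and its sign turned to 0.03 with quantile normalization. RBL1, the RB relative p107, and the repressor E2F7 were 2.8-fold and 3.16-fold lower.

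CDK inhibitor genes split by member. CDKN1A, which encodes p21 (chr6:36676463-36687332), stood at 23.1 and 23.2 FPKM in E545K and 94.9 and 95.6 in H1047R, a 4.12-fold difference (2.00, SE 0.0467, adjusted p = 5.93e-08). CDKN2B (p15), CDKN2D (p19) and CDKN1C (p57) were higher too, by 1.18, 0.97 and 0.76. CDKN2C (p18), CDKN2A (p16) and CDKN1B (p27) were lower, at -0.71, -0.46 and -0.19. All 7 members of the list were called, 4 higher and 3 lower. CDKN1B was at the edge (adjusted p = 0.0422, and 0.0941 with quantile normalization), and the call of CDKN1C was lost without H1047R replicate 2 of the drug pair (adjusted p = 0.0505).

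Of 30 targets of the p53 transcription factor, 14 were higher and 5 lower (median 0.16). CDKN1A was the highest, followed by the kinase gene PLK2 (4-fold), the stress cytokine GDF15 and GADD45A (2.57-fold). GDF15 read 18.0 and 17.9 FPKM in E545K and 61.3 and 61.3 in H1047R (1.72, SE 0.158, adjusted p = 5.54e-05). DDB2, a DNA repair protein, and TP53I3 were lower, each at -0.84. MDM2, the ubiquitin ligase that turns p53 over, did not pass the test (0.07, adjusted p = 0.263), though it did with quantile normalization (0.14, adjusted p = 0.0451). The direction of the list was therefore not uniform.

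Genes of cell death leaned to H1047R: 14 of 24 in the BCL2 and death receptor list were higher and 5 lower (median 0.27). The 5 became 2 or 3 without any 1 of the 4 drug-pair libraries, 2 with quantile normalization and 3 with median-centring. PMAIP1, which encodes the BH3 protein NOXA, was the furthest, with 19.3 and 19.5 FPKM in E545K and 182 and 177 in H1047R (3.15, SE 0.0742, adjusted p = 5.93e-08). TNFRSF10B, a TRAIL receptor, was 2.39-fold higher, and its ligand gene TNFSF10 was 2.65-fold lower. Survival genes stood on both sides, with BCL2L1 (BCL-XL) at 0.91, CFLAR at 0.85 and BCL2 at -0.70. Promoters and inhibitors of apoptosis were thus both among the genes called higher.

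Genes around EGFR, the receptor that erlotinib inhibits, were read at 3 levels, and the signaling itself was not measured. EGFR itself did not pass the test, at 107 and 109 FPKM in E545K and 119 and 116 in H1047R (0.12, 95% interval -0.08 to 0.32, adjusted p = 0.272), though it did when limma was run on these 4 libraries alone (adjusted p = 0.0144). Of 13 receptor and ligand genes tested, 6 were higher and 2 lower (median 0.12). The ligand AREG (amphiregulin) read 48.9 and 52.0 FPKM in E545K and 166 and 174 in H1047R, a 3.37-fold difference. EREG (epiregulin) was 3.08-fold higher, and ERRFI1, an intracellular inhibitor of EGFR, 3.37-fold higher. The sheddase ADAM17 was higher by 0.86. Both partner receptors were lower, ERBB3 at -0.69 and ERBB2 at -0.32. The named ligands thus lay above and the named partner receptors below their level in E545K.

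Of 24 genes known as outputs of ERK signaling, 14 were higher and 4 lower (median 0.38). DUSP5, a nuclear ERK phosphatase, stood at 17.3 and 17.8 FPKM in E545K and 92.3 and 101 in H1047R (2.40, SE 0.145, adjusted p = 5.48e-06). The AP-1 gene FOSL1 was 3.82-fold higher and PHLDA1 was 3.26-fold higher. The 4 lower genes were EGR1, ETV1, DUSP6 and EPHA4. DUSP6, a cytoplasmic ERK phosphatase often used as a readout of the pathway, stood at 8.47 and 9.31 FPKM in E545K and 5.40 and 5.08 in H1047R (-0.66, SE 0.0799, adjusted p = 0.000233). The 2 phosphatase genes therefore went opposite ways. EGR1, an immediate early gene, was at -0.91 with an adjusted p of 0.0141, and the call was lost without E545K replicate 1, E545K replicate 2 or H1047R replicate 2 of the drug pair (0.0588, 0.0674 and 0.0934).

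Of 27 PI3 kinase genes and FOXO targets, 10 were higher and 8 lower (median 0.01). The 10 became 6 without E545K replicate 1 or either H1047R library of the drug pair, and the 8 became 5 without replicate 2 of either line. KLF2 and TXNIP, which FOXO factors can activate, were higher by 1.16 and 0.80, while SESN3 and CCNG2, also FOXO targets, were lower, at -1.23 and -0.95. PIK3R1, the regulatory subunit p85 alpha, was slightly lower (-0.25, adjusted p = 0.024), a call lost with quantile normalization (adjusted p = 0.21).

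**Figure D2:**
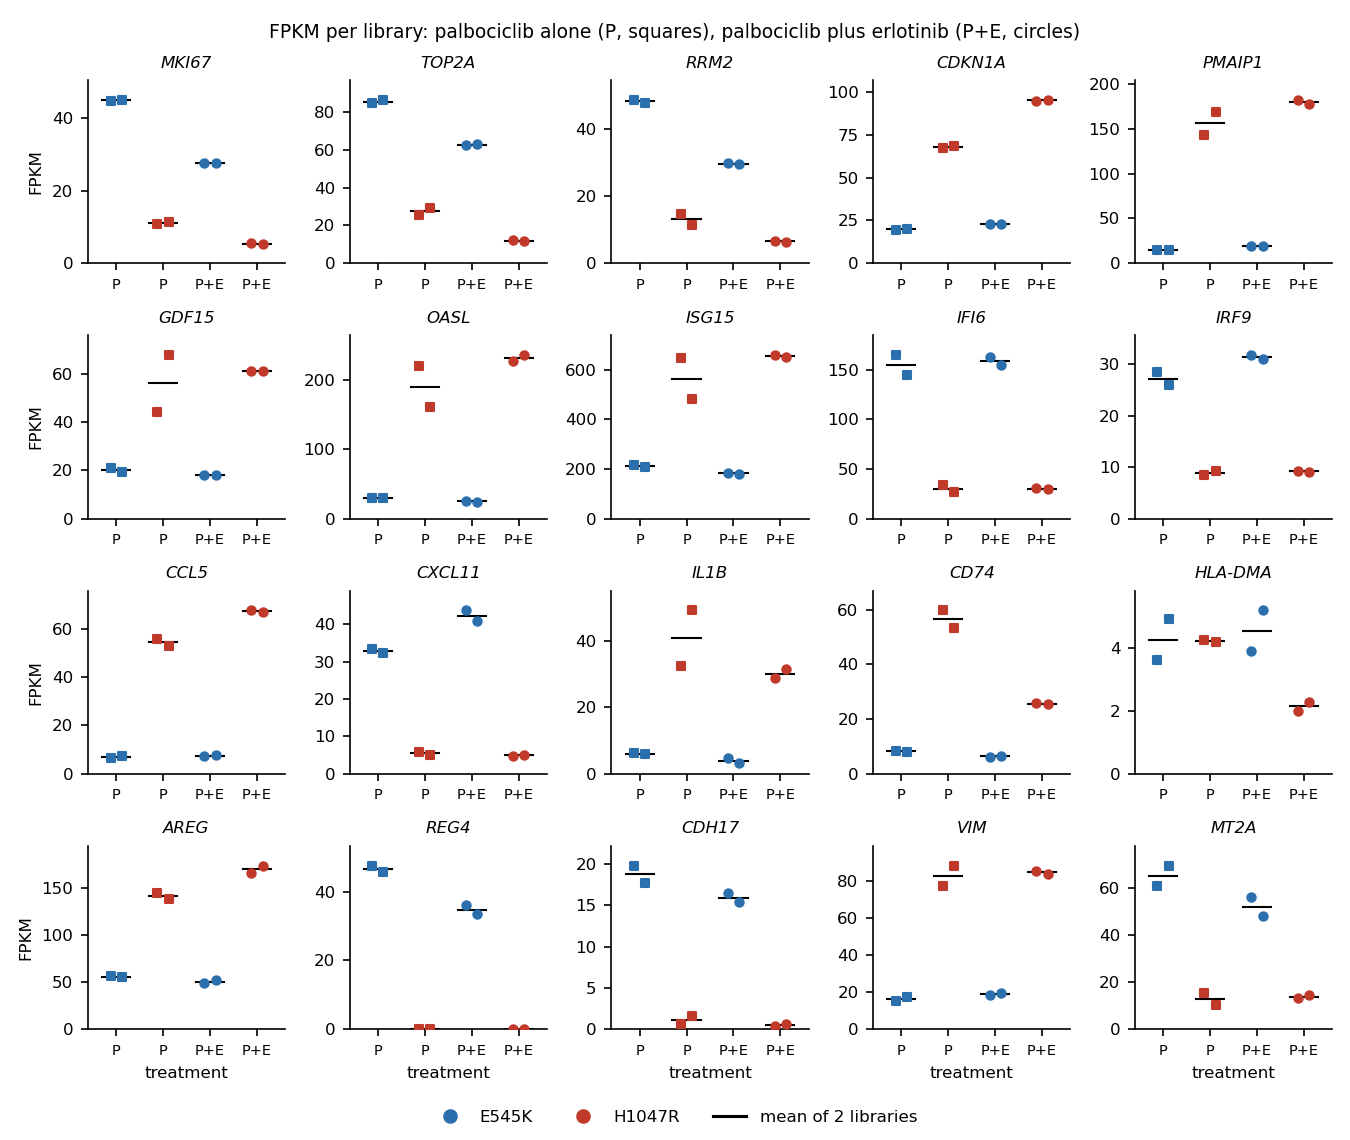
FPKM in each library for 20 genes, with E545K in blue and H1047R in red; squares are palbociclib alone and circles palbociclib plus erlotinib, with 2 libraries per group and the mean as a bar. Each y axis starts at 0. Under the drug pair the 2 libraries of one line lie apart from the 2 of the other, for example at 27.6 and 27.6 against 5.53 and 5.29 FPKM for MKI67. The panels show called genes, and such separation was found in every called gene and in 82.2% of all genes tested.

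Interferon-stimulated genes divided into a high and a low set. Of 45 tested, 13 were higher and 25 lower in H1047R (median -0.35). OASL, a relative of the OAS enzymes, read 25.9 and 24.6 FPKM in E545K and 228 and 237 in H1047R (3.15, SE 0.12, adjusted p = 4.83e-07). IFIT2, ISG20 and the ubiquitin-like ISG15 were 5.04-fold, 4.8-fold and 3.58-fold higher. On the low side, IFI6 read 162 and 155 FPKM in E545K and 30.4 and 29.4 in H1047R (-2.37, SE 0.0996, adjusted p = 7.65e-07). IFI44L and IFI27 were 5-fold and 3.55-fold lower. Of the transcription factors of the type I response, IRF9 was 3.41-fold lower, at 31.8 and 31.1 FPKM in E545K and 9.34 and 9.11 in H1047R, and STAT2 was lower at -0.55.

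The response element of these genes, GAAANNGAAA, occurred in the 250 bases before the start in 24 of 35 list genes with a window (68.6%), against 3.71% of all genes and 3.32% of the tested genes with a window. It was in 9 of the 11 higher genes and in 12 of the 20 lower genes with a window. The letters were thus found on both sides of the split. One higher and 2 lower genes are shown, with each copy in capitals; the IFI44 copy lies on the other strand and reads as the reverse complement.
IFI44: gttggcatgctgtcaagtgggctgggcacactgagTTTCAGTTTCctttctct
IFI6: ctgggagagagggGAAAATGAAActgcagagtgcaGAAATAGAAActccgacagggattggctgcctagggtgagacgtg
SAMD9: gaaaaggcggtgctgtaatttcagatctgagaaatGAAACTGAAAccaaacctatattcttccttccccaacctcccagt
The stretches lie at chr1:78649736-78649788 (plus strand), chr1:27672241-27672320 (minus) and chr7:93118071-93118150 (minus). IFI44 was 1.89-fold higher, at 28.8 and 28.8 FPKM in E545K and 54.6 and 54.4 in H1047R. SAMD9, an antiviral protein, was lower at 33.5 and 32.8 against 17.7 and 15.4, and IFI6 was given above.

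Antigen presentation genes were counted by class, with no test between the classes. For class I, 6 of 16 genes were higher and 1 lower (median 0.14), led by B2M, the light chain of class I molecules, at 115 and 112 FPKM in E545K and 183 and 178 in H1047R. HLA genes share sequence, so how reads were divided between them is uncertain. For class II, 2 of 12 were higher and 5 lower (median -0.18), where 19.9% of all genes tested were higher and 33.1% lower. The 2 class II genes became 1 without any 1 of the 4 drug-pair libraries, and the 5 became 3 without E545K replicate 1 or H1047R replicate 2 of the pair. The 1 lower class I gene became 0 without E545K replicate 2 and 2 without H1047R replicate 1. CD74, the invariant chain, was 4.03-fold higher at 6.19 and 6.54 against 25.8 and 25.6 FPKM (1.86, SE 0.0673, adjusted p = 3.88e-07). HLA-DQB1 and HLA-DMA were lower, at -0.95 and -0.81. HLA-DRA was called lower at -0.25 (adjusted p = 0.0365), which quantile normalization did not keep (adjusted p = 0.145). The 2 higher members were CD74, a chaperone of the class II chains, and the chain gene HLA-DQA1, while HLA-DQB1, HLA-DMA and HLA-DRA were among the lower ones. HLA-DRB1 was not called (0.09, adjusted p = 0.443).

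Inflammatory genes were more often higher than lower in H1047R. Of 31 NF-kB targets and chemokines, 16 were higher, 6 lower and 9 not called (median 0.26). Over all genes tested 19.9% were higher and 33.1% lower. CCL5, a chemokine for T cells, read 7.31 and 7.78 FPKM in E545K and 67.6 and 67.0 in H1047R (3.00, SE 0.075, adjusted p = 7.1e-08). CX3CL1, a membrane-bound chemokine, was at 0.02 and 0.02 against 6.01 and 5.56. SOD2, the mitochondrial superoxide dismutase, was 4.6-fold higher, and the neutrophil chemokine CXCL1 was 2.65-fold higher. The lower members were led by CXCL11 (43.7 and 40.7 FPKM in E545K and 4.83 and 5.09 in H1047R), a chemokine that interferon also drives. ICAM1, an adhesion molecule, was at 7.15 and 7.40 against 0.84 and 0.79. TNFAIP2 and CCL20 were 4.7-fold and 2.48-fold lower.

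The NF-kB words GGGANNTTCC and GGGNNTTTCC, read on both strands and allowed to overlap, were in the 250 bases before the start of 16 of 25 list genes with a window (64%), against 3.19% of all genes and 3.89% of the tested genes with a window. They were in 8 of 13 higher and 3 of 6 lower genes. Matched letters are in capitals in 2 higher genes and 1 lower gene.
CXCL1: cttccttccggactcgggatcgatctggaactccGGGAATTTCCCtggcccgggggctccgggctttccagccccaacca
NFKBIA: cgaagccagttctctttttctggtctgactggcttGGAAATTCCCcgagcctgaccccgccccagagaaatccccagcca
CCL20: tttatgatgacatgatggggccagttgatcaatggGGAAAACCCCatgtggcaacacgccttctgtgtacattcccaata
They lie at chr4:73869280-73869359 (plus strand), chr14:35404786-35404865 (minus) and chr2:227813728-227813807 (plus). NFKBIA, the inhibitor that NF-kB induces against itself, was 1.93-fold higher, at 112 and 119 FPKM in E545K and 228 and 218 in H1047R. As with the interferon element, the letters stood before genes of either direction.

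Secreted factors known from senescent cells were mostly higher where called: 14 of 24 tested were higher and 1 lower (median 0.55). TIMP3, a protease inhibitor, read 0.10 and 0.16 FPKM in E545K and 6.93 and 8.06 in H1047R. MMP7 read 0.36 and 0.26 FPKM in E545K and 8.45 and 7.53 in H1047R. The interleukin genes IL1A and IL1B were 9.86-fold and 7.56-fold higher, IL1B at 4.67 and 3.30 FPKM in E545K and 28.7 and 31.6 in H1047R (2.66, SE 0.185, adjusted p = 1.19e-05). TIMP2, another protease inhibitor, was the 1 lower member, at -0.98, and 3 were lower when 1 of the 2 H1047R libraries of palbociclib alone was left out. Of the 40 genes of the list, 38 were in the table and 14 of these did not reach the level needed for the test, so the count covers expressed members. Complement genes leaned the same way, with 7 of 12 higher and 2 lower (median 0.40). CFB, a protease of the alternative pathway, was 5.8-fold higher, C3 was at 0.47 and 0.57 against 4.29 and 3.67 FPKM, and CD55, which shields cells from complement, was 2.87-fold higher.

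**Figure D3:**
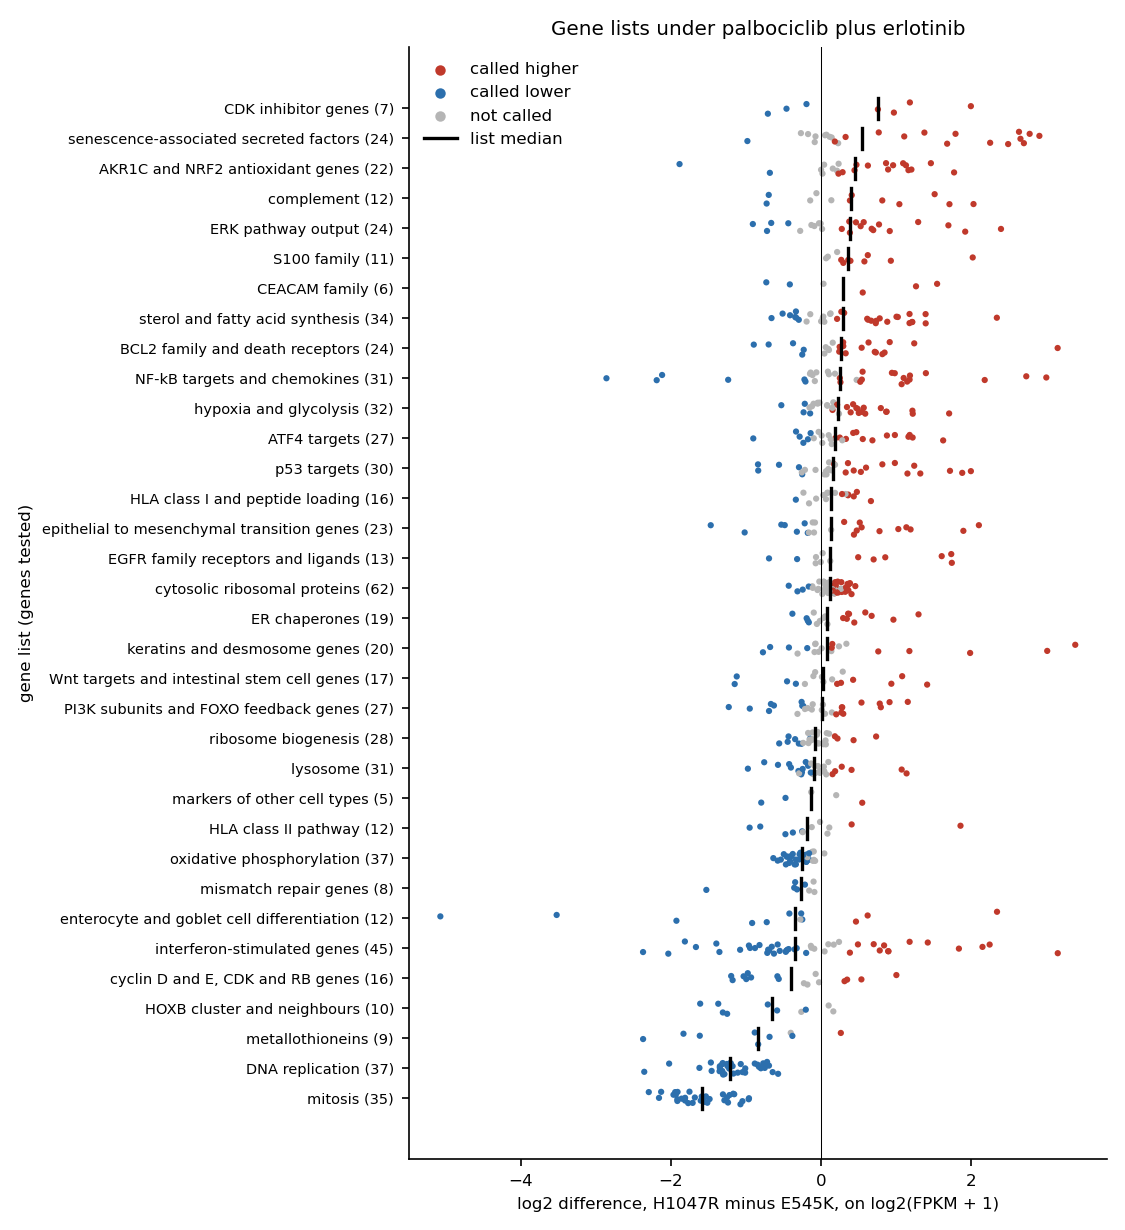
Log2 difference of H1047R minus E545K under palbociclib plus erlotinib for every tested member of the gene lists with at least 5 tested genes, 1 list per line, ordered by median; the number tested is in brackets. Red and blue points were called higher and lower, grey points were not called, and black bars are medians, which run from -1.59 for mitosis to 0.76 for CDK inhibitor genes.

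Genes of the differentiated gut were mostly lower. Of 12 enterocyte and goblet cell genes tested, 8 were lower and 3 higher (median -0.35). After REG4, the cadherin gene CDH17 differed most, at 16.5 and 15.4 FPKM in E545K and 0.38 and 0.58 in H1047R. CDX2, the transcription factor of intestinal identity, stood at 89.7 and 86.9 FPKM in E545K and 22.6 and 22.4 in H1047R, a 3.92-fold difference (-1.93, SE 0.1, adjusted p = 2.35e-06). VIL1, the brush border protein villin, was at 1.31 and 1.28 against 0.23 and 0.20. The membrane mucin gene MUC13 went the other way, at 5.24-fold higher. CDX2 and CDH17 thus fell on the same side as CRIP1 and REG4.

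Stem cell and Wnt target genes were split, with 6 of 17 higher and 4 lower (median 0.03). LGR5, the marker of crypt stem cells, was lower at 52.7 and 54.2 FPKM in E545K and 25.8 and 22.3 in H1047R. The Wnt inhibitor genes DKK1 and AXIN2 were lower, at -1.15 and -0.45. CD44 and SOX9 were 2.78-fold and 2.17-fold higher. In the CEACAM family, 3 of 6 were higher and 2 lower (median 0.29), and 1 was lower without E545K replicate 2 or either H1047R library of the drug pair. CEACAM5, the carcinoembryonic antigen, stood at 17.4 and 17.7 FPKM in E545K and 48.2 and 58.5 in H1047R, CEACAM1 was 2.5-fold higher, and CEACAM6 was 1.78-fold lower.

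Keratins of stratified epithelia were low in E545K and detectable in H1047R. KRT16 was at 0.82 and 0.90 FPKM in E545K and 16.8 and 20.2 in H1047R (3.39, SE 0.326, adjusted p = 6.97e-05), KRT14 at 0 and 0.04 against 6.13 and 8.49, and KRT17 at 0.46 and 0.23 against 4.10 and 4.52. These 3 genes have near-identical relatives, so their exact split is uncertain. Of the whole list of 20 keratin and desmosome genes, 7 were higher and 4 lower (median 0.07). KRT80 was the lowest, at -0.77. Among keratins of simple epithelium, KRT8 and KRT19 did not pass the test (-0.08 and -0.07, turning to 0.0032 and 0.0076 with median-centring). KRT18 was called higher by 0.15 (adjusted p = 0.027), and the call was lost without any 1 of the 4 drug-pair libraries (adjusted p 0.0709 to 0.203).

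Of 23 genes of the epithelial to mesenchymal transition list, 11 were higher and 7 lower (median 0.14). VIM, the mesenchymal filament protein vimentin, read 18.4 and 19.6 FPKM in E545K and 85.5 and 84.1 in H1047R (4.46-fold, adjusted p = 4.99e-07). L1CAM was 5.53-fold higher, and ZEB1, a repressor of epithelial genes, was at 0.80 and 0.56 against 2.80 and 2.57 FPKM. GRHL2, which maintains epithelial genes, and the surface protein EPCAM were lower, at -1.02 and -0.53. AXL, a receptor often raised in mesenchymal cells, was lower as well, at -1.47. The list holds both epithelial and mesenchymal genes, and its members did not share a direction. In the S100 family, 8 of 11 were higher and none lower (median 0.36), led by S100P at 30.9 and 27.3 against 113 and 129 FPKM. In the HOXB cluster and its neighbours on chromosome 17, 7 of 10 were lower (median -0.65), with HOXB5 at 67.2 and 73.2 FPKM in E545K and 23.6 and 21.1 in H1047R and HOXB7 and HOXB8 at -1.37 and -1.31.

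Lipid synthesis genes leaned to H1047R. Of 34 genes for sterol and fatty acid synthesis, 19 were higher and 7 lower (median 0.29). INSIG1 (chr7:155297878-155310235), which holds back SREBP and is its target, read 8.18 and 7.64 FPKM in E545K and 43.9 and 44.3 in H1047R (2.34, SE 0.0814, adjusted p = 3.19e-07). HMGCS1, which makes HMG-CoA for cholesterol, was 2.38-fold higher, MSMO1 2.71-fold, STARD4 2.75-fold and the desaturase SCD 2.32-fold. TM7SF2, a late sterol reductase, was the lowest at -0.66. Of 27 targets of ATF4, the factor of the amino acid response, 13 were higher and 6 lower (median 0.19). ATF3, DDIT4 and TRIB3 were 3.2-fold, 2.34-fold and 2.29-fold higher. PHGDH, the first enzyme of serine synthesis, was lower at 223 and 227 FPKM in E545K and 120.0 and 119.7 in H1047R.

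Stress and redox genes followed. Of 32 genes of hypoxia and glycolysis, 17 were higher and 4 lower (median 0.23), with ANKRD37 4.63-fold and NDRG1 2.43-fold higher and PFKL, a phosphofructokinase, at -0.53. Of 22 antioxidant genes of the NRF2 list, 14 were higher and 2 lower (median 0.46). TXNRD1, thioredoxin reductase, was at 95.4 and 89.8 FPKM in E545K and 249.7 and 264 in H1047R, and NQO1 at 0.88 and 0.52 against 4.97 and 4.58, while the glucuronosyltransferase UGT1A6 was 3.9-fold lower. Of 19 ER chaperone genes, 9 were higher and 4 lower (median 0.09), led by HSPA5 (BiP) at 2.47-fold. The 4 lower ER chaperone genes became 1 or 2 without any 1 of the 4 drug-pair libraries, and 1 with median-centring. Metallothioneins, which bind zinc and copper, were lower: 7 of 9 list genes were lower and 1 higher (median -0.84). The higher one, MTF1, the factor that switches metallothioneins on, was at 0.26 and lost the call without E545K replicate 2 or either H1047R library of the drug pair (adjusted p 0.0748 to 0.159). MT2A stood at 56.1 and 48.0 FPKM in E545K and 13.1 and 14.7 in H1047R, and MT1E at 96.8 and 103 against 18.2 and 18.8, with the caveat that MT1 genes are close copies.

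Among housekeeping groups, oxidative phosphorylation genes were lower by small steps: 30 of 37 were lower and none higher (median -0.26), with NDUFB3 and NDUFV1 of complex I at -0.64 and -0.58. Of 62 cytosolic ribosomal protein genes, 24 were higher and 4 lower (median 0.12), from -0.43 for RPL6 to 0.46 for RPLP1. That count of 24 rested on single libraries and on the scaling: it was 12 to 42 with any 1 of the 8 libraries left out, 16 with quantile normalization and 40 with median-centring. Ribosome biogenesis genes had 4 of 28 higher and 7 lower (median -0.08), and lysosomal genes 6 of 31 higher and 12 lower (median -0.09). Over all genes tested 19.9% were higher and 33.1% lower (median -0.08), so both list medians lay near that of all genes. Among lysosomal genes, NPC1, a cholesterol exporter, was at 1.14 and the protease gene CTSH at -0.97. The 4 higher biogenesis genes became 2 without any 1 of the 4 drug-pair libraries, and the 7 lower became 4 without E545K replicate 1 or H1047R replicate 2 of the pair. The 12 lower lysosomal genes became 7 without replicate 2 of either line and with median-centring. Of 8 mismatch repair genes, 5 were lower (median -0.27), EXO1 most at -1.53. The 5 became 3 with quantile normalization or median-centring, and without E545K replicate 1, E545K replicate 2 or H1047R replicate 1 of the drug pair. Differences were spread over the genome, with chromosome medians from -0.124 on chromosome 7 to -0.0129 on chromosome 3.

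Most of the line difference was also present under palbociclib alone. In the 4 libraries of the second table without erlotinib, 2679 genes (21.5%) were higher in H1047R and 3755 (30.1%) lower, 51.6% in all. Across the 12463 genes the differences with and without erlotinib correlated at r = 0.889, a description over genes from separate libraries of the same lines and table. Of the 2485 genes higher under the drug pair, 1915 (77.1%) were also called higher without erlotinib, which is 71.5% of those higher there. Of the 4120 lower genes, 3059 (74.2%) were also lower without it (81.5% of those lower there). Only 13 and 32 genes were called in opposite directions. MKI67 differed by -1.93 without erlotinib, CDKN1A by 1.73, PMAIP1 by 3.31, OASL by 2.61 and IFI6 by -2.33.

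The change of the line difference with erlotinib was tested directly, as the difference with both drugs minus the difference with palbociclib alone. It was called in 270 genes (2.17%), 112 upwards (0.899%) and 158 downwards (1.27%). The split depended on the scaling: 41.5% of these calls were upward, against 55.3% with median-centring, which called 142 upwards and 115 downwards. This count rests on few libraries: it was 2079 without H1047R palbociclib replicate 1, 917 without replicate 2 of that group, and 34 to 48 without any other single library. The 2 H1047R libraries under palbociclib alone were the least alike of the table, with a correlation of 0.9904 across genes against 0.9968 to 0.9973 in the other 3 groups. The hours of palbociclib alone are not given for this table, so time and erlotinib cannot be told apart in this contrast.

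Sterol and fatty acid genes made up the largest upward group among the lists, with 18 of 34 called upward and none downward (median 0.56; all genes -0.03). INSIG1 had the largest upward change of the genes named here. Under palbociclib alone it stood at 27.6 and 32.1 FPKM in E545K and 32.6 and 36.0 in H1047R, and with erlotinib at 8.18 and 7.64 in E545K and 43.9 and 44.3 in H1047R. With erlotinib the E545K level was well below that without it, while H1047R was slightly above. The line difference went from 0.20 to 2.34, a change of 2.14 (SE 0.115, adjusted p = 0.000391). HMGCS1 changed by 1.36, MSMO1 by 1.08, STARD4 by 1.10 and SCD by 1.29. Under palbociclib alone, 5 of the 34 genes were higher in H1047R and 16 lower in the second table (median -0.18). In the first table, by contrast, palbociclib gave 25 higher and 1 lower (median 0.52). Higher levels of these genes in H1047R were thus also seen without erlotinib, in the first table. Read within each line, 28 of the 34 genes were lower with erlotinib in E545K and none higher (median -0.56; 9.11% of all genes were lower and 16.2% called), while in H1047R 4 were higher and 2 lower (median -0.01; 3.01% of all genes were higher and 6.35% lower, 9.36% in all). These within-line contrasts use the same 8 libraries as the test above. Leaving out 1 library moved the count of 18 to between 5 and 26.

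ATF4 targets made up the largest downward group among the lists, with 17 of 27 called downward and none upward (median -0.53). ASNS, asparagine synthetase, stood under palbociclib alone at 54.6 and 56.5 FPKM in E545K and 126 and 109.6 in H1047R, and with erlotinib at 138 and 136 in E545K and 121 and 121 in H1047R. With erlotinib the lines were close, and without it H1047R lay above E545K in both libraries. Its line difference went from 1.07 to -0.17, a change of -1.24 (SE 0.0908, adjusted p = 0.00138). PSAT1 and PHGDH of serine synthesis changed by -1.07 and -0.97, and CHAC1, which degrades glutathione, by -1.20. Within E545K, 24 of the 27 were higher with erlotinib and none lower (median 0.62; 7.1% of all genes were higher), and within H1047R 5 were higher and none lower (median 0.07). Of the 27 genes, 24 were higher in H1047R under palbociclib alone in the second table, against 13 with both drugs. In the first table, by contrast, palbociclib gave 2 higher and 8 lower (median -0.15), and DMSO gave 2 higher and 15 lower (median -0.36). The higher levels in H1047R under palbociclib alone were thus not seen in the first table. The count of 17 ran from 4 to 24 when 1 library was left out.

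Smaller groups changed as well. For hypoxia and glycolysis, palbociclib alone gave 9 of 32 genes higher in H1047R and 13 lower in the second table (median -0.12). In the first table it gave 11 higher and 1 lower (median 0.30). Of 32 hypoxia and glycolysis genes, 8 changed upward (1 to 24 without 1 library), led by ANKRD37 at 1.86. Of 35 mitosis genes, 11 changed downward (0 to 25 without 1 library), TOP2A by -0.69 and CENPF by -0.62, so these lay further below E545K with erlotinib than without. All 35 mitosis genes were lower with erlotinib in H1047R (median -0.86) and 31 of 35 in E545K (median -0.47). Of 12 class II genes, 4 changed downward (0 to 6 without 1 library): HLA-DRA by -0.92, HLA-DRB1 by -0.99 and CD74 by -0.79 were among them. HLA-DRB1 stood at 16.1 and 15.1 FPKM in H1047R under palbociclib alone and 6.12 and 5.68 with erlotinib. Single genes with large changes included FGFBP1 (1.53), ID2 (1.45), IL1R2 (1.39) and BHLHE40 (1.32) upward, and SULT1A3 (-2.22), CAPN8 (-1.47), TGM2 (-1.25), GSTM1 (-1.24), RGS2 (-1.19) and LRRN4 (-1.08) downward. SULT1A3 has a near-identical copy, so its value is uncertain. Among the 39 named genes called in this test, 12 kept the call under every alternative, including each library left out: INSIG1, HMGCS1, MSMO1, BHLHE40 and MUC13 upward, and ASNS, PSAT1, PHGDH, CHAC1, DKK1, LRRN4 and SULT1A3 downward. AREG changed by 0.41 (adjusted p = 0.0334) and EGFR by -0.47, which did not pass the test (adjusted p = 0.106). With erlotinib, 6 of 24 ERK output genes were higher and 3 lower in E545K (median 0.13). Over all genes 7.1% were higher and 9.11% lower there. In H1047R 1 of the 24 was higher and 1 lower (median -0.04), where 3.01% of all genes were higher and 6.35% lower.

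**Figure D4:**
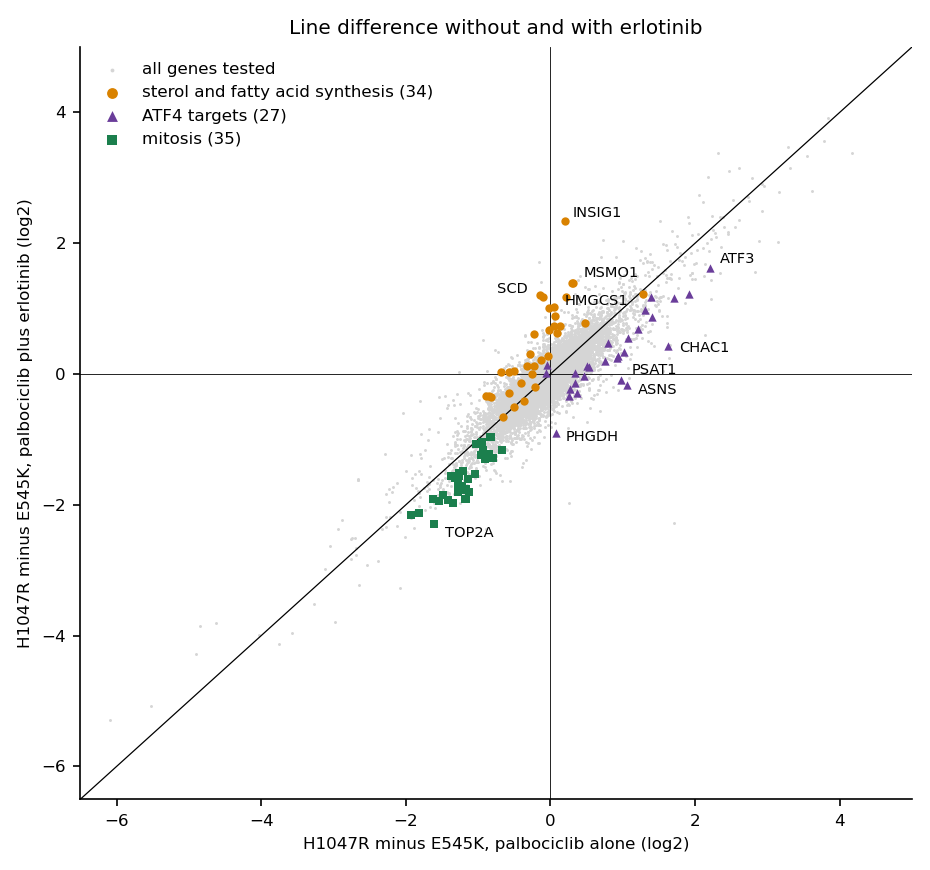
The log2 difference of H1047R minus E545K under palbociclib alone (x axis) and under palbociclib plus erlotinib (y axis) for the 12463 genes tested in the second table, with 3 gene lists coloured and the line marking equal differences. Sterol and fatty acid genes lie mostly above the line (INSIG1 at 0.20 and 2.34), ATF4 targets mostly below it (ASNS at 1.07 and -0.17), and mitosis genes lie low on both axes.

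Set beside the first table, the drug pair gave a line difference uncorrelated across genes with that in DMSO. The tables were fitted apart, the points of each correlation below share only the lines, and 12314 genes were tested in both. In DMSO 21.6% of genes were higher in H1047R and 20% lower (41.6% in all), and the correlation with the difference under both drugs was -0.0353 across genes. More of the genes called under the drug pair went the opposite way in DMSO (790 of the higher and 1198 of the lower) than the same way (405 and 602, which are 16.4% and 14.8% of the genes called under the drug pair and 15% and 24.7% of those called in DMSO). Under palbociclib in the first table (4.75% higher and 11.5% lower, 16.3% in all) the correlation was 0.471, with 369 genes higher in both and 899 lower in both, against 119 and 53 opposite. These shared calls were 15% and 22.1% of the calls of the drug pair and 64% and 63.2% of those of the first table. In conditioned medium (8.91% higher and 11.2% lower, 20.1% in all) it was 0.33. Single libraries set the counts of the first table: 2053 genes were called under palbociclib, but 5134 without H1047R replicate 1 and 779 without E545K replicate 1, and 2533 in conditioned medium, but 1464 to 1546 without any 1 of its 4 libraries. No test of the difference between tables was made.

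The replication and mitosis genes show the contrast between settings and between tables. Between the first table and the drug pair, table, treatment and, where given, hours differ together and cannot be told apart. In DMSO 12 of 37 replication genes were higher in H1047R and 6 lower. Under palbociclib alone none was higher and 7 lower in the first table, and none higher and 36 lower in the second. Mitosis genes had medians of -0.17 in DMSO, 0.17 in conditioned medium and -0.26 under palbociclib in the first table. In the second table the medians were -1.21 under palbociclib alone and -1.59 under both drugs. MKI67 differed by 0.09 in DMSO (adjusted p = 0.74) and by -0.64 under palbociclib in the first table. Of 30 p53 targets, 26 were lower in H1047R and 1 higher in DMSO. CDKN1A and GDF15 were then at -2.38 and -2.76, against 2.00 and 1.72 under both drugs. Interferon genes were lowest in conditioned medium, with 38 of 45 lower (median -1.49). In the drug pair 25 of the same 45 were lower and 13 higher (median -0.35). In DMSO the list went the other way, with 22 higher and 9 lower (median 0.26).

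A core of genes differed the same way everywhere. Of the 12314 genes tested in both tables, 80 were called higher and 119 lower in H1047R in all 5 settings, which is 3.25% and 2.92% of those called under the drug pair. They included 20 of the 30 genes with the largest differences: CSAG3, CXorf49B, KRT16, ZNF22, OASL, EMP3, CCL5, FXYD2 and MMP7 on the high side, and CRIP1, REG4, ALDH1L1, MSLN, TRIM31, IL33, CDH17, SLCO2A1, CSMD3, DOCK3 and CXCL11 on the low side. RB1 was higher in all 5, from 0.62 under palbociclib in the first table to 1.62 in DMSO. CRIP1 was between -4.88 and -6.09 throughout. PMAIP1, by contrast, was at 0.31 in DMSO and 0.19 in conditioned medium (adjusted p = 0.155), and VIM at -0.17 in DMSO, -0.44 under palbociclib in the first table and 3.15 in conditioned medium.

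**Figure D5:**
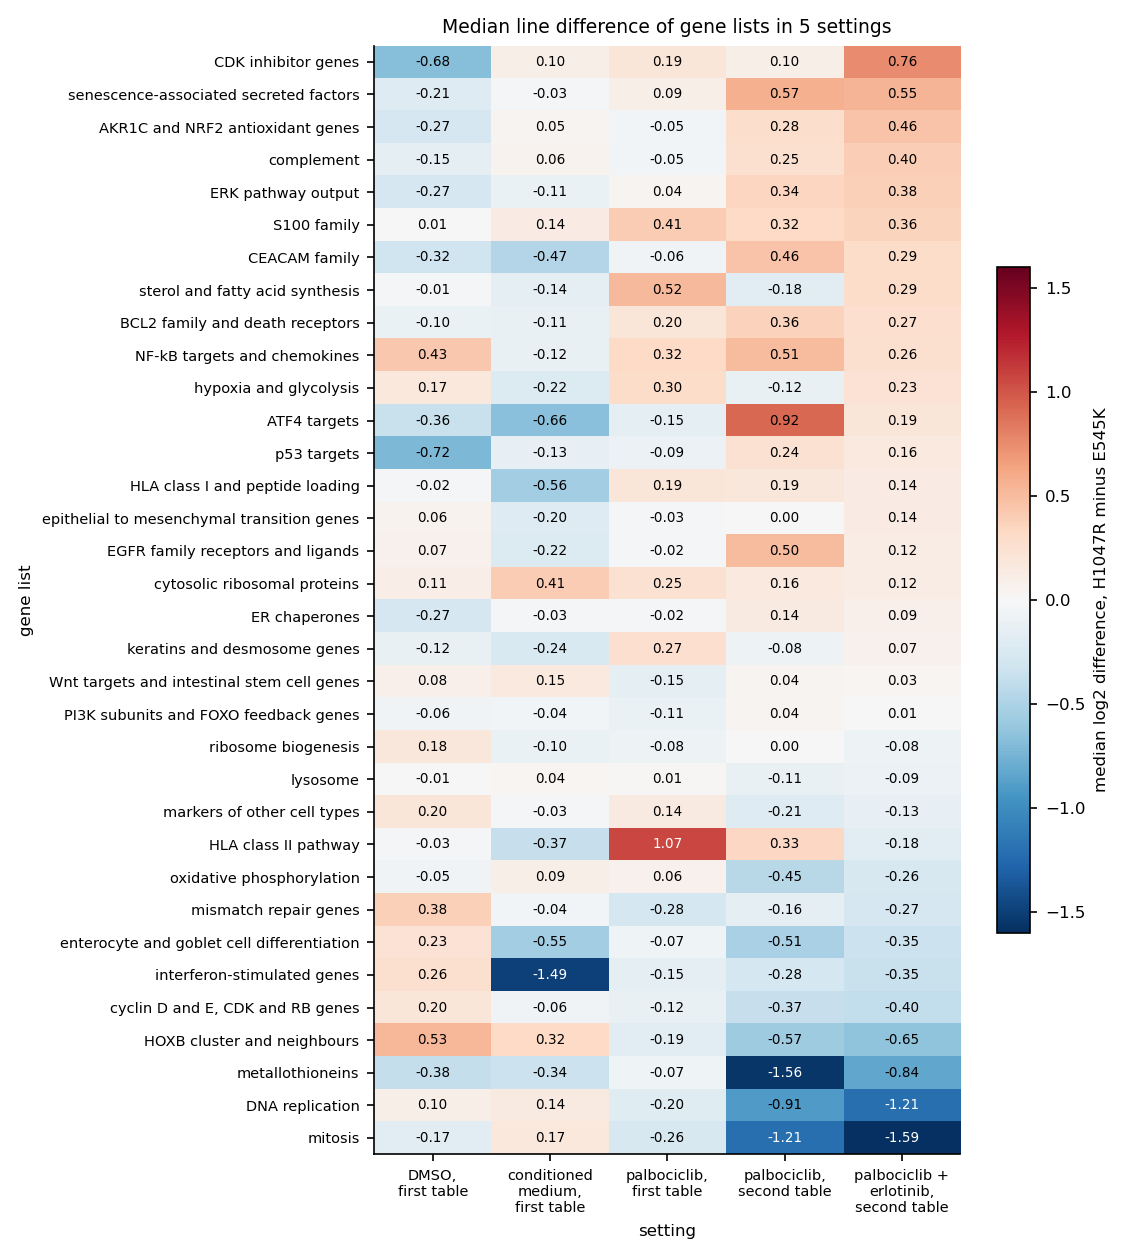
Median log2 difference of H1047R minus E545K for each gene list with at least 5 tested genes (rows) in 5 settings (columns), printed in each cell and coloured from blue (lower in H1047R) to red (higher), with the 2 tables fitted apart. The mitosis row reads -0.17, 0.17, -0.26, -1.21 and -1.59 from DMSO to the drug pair, and the p53 row -0.72 in DMSO and 0.16 under the drug pair.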

How the data were processed

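RNA of 26 LoVo libraries was sequenced, and the 4 libraries of H1047R and E545K under both drugs were compared within the table of 8 libraries that holds them. The authors deposited FPKM per gene, with no counts; per the submitters' processing notes the tools included RSEM 1.3.1, DESeq2 1.4.5, and the aligners Bowtie2 2.3.4.3 and HISAT2 2.1.0, and the genome was GRCh38 (hg38). Depth is therefore unknown: steps between low values of 889 genes were near whole reads for 56% to 66.3% of values, which recovers no counts. Genes with at least 1 FPKM in at least 2 of the 8 libraries were kept (12463, with 5271 not tested). limma 3.58.1 (R 4.3.3) was fitted to log2(FPKM + 1) over all 4 groups of 2 libraries with an intensity trend, and the Benjamini-Hochberg threshold was 0.05. The 18 libraries of the first table were fitted apart. The fit was tested on simulated data. On the log2 scale it called 41 of 50 genes changed by 0.5, 100 of 100 changed by 1 and 50 of 50 changed by 2. All genes of a group had the same simulated spread, and far fewer genes were changed than were called here. The simulation therefore says nothing on how many of the calls in these data are right. With 2 libraries against 2, an exact permutation test of a single gene cannot go below p = 0.333, so none was made.

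Genes were matched by identifier to RefSeq (12440 of 12463), which gave positions and promoter windows. The text names, in the palbociclib plus erlotinib comparison, the 15 genes with the largest difference in each direction whose groups do not overlap, without genes of chromosome Y; up to 4 called genes per direction of each of 36 lists; 18 genes named whatever their values; and the 8 genes with the largest change with erlotinib in each direction. Members and lists were chosen with earlier results of these data known, so no list count is independent evidence. TPX2, CDC25C, MCM6, MDM2, STAT2, KRT8, KRT19, HLA-DRA, HLA-DRB1 and PSAT1 fall outside that rule and were chosen after their values were seen; so were the epithelial markers CDH1, KRT18 and LGALS4. PCNA, UHRF1, IFI44, SAMD9 and NFKBIA were named for their promoter matches. Some genes that the rule names are not reported here. Alternatives were a pseudocount of 0.1, no filter, at least 5 FPKM, quantile normalization, median-centring, rescaling to TPM, a block on replicate number, no intensity trend, the compared groups alone, and each library left out.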

Additional observations from a re-analysis of the deposited data

Results flagged for a closer look

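The response to erlotinib, added to palbociclib, was tested for a difference between the lines as the H1047R minus E545K difference with erlotinib minus that without it. limma called 270 genes, and this count was 34 to 2079 when 1 library was left out, largest without H1047R palbociclib replicate 1. Upward changes, on the log2 scale, were 2.14 for INSIG1, 1.86 for ANKRD37, 1.53 for FGFBP1, 1.45 for ID2, 1.39 for IL1R2, 1.36 for HMGCS1, 1.32 for BHLHE40, 1.29 for SCD, 1.10 for STARD4 and 1.08 for MSMO1. Smaller upward changes were 0.88 for VIL1, 0.83 for MUC13, 0.80 for CRIP1, 0.64 for EMP3, 0.51 for TXNRD1, 0.49 for SOD2, 0.41 for AREG and 0.36 for HSPA5. Downward changes were -2.22 for SULT1A3, -1.47 for CAPN8, -1.25 for TGM2, -1.24 for GSTM1, -1.24 for ASNS, -1.20 for CHAC1, -1.19 for RGS2, -1.08 for LRRN4, -1.07 for PSAT1, -0.99 for HLA-DRB1 and -0.97 for PHGDH. Smaller downward changes were -0.92 for HLA-DRA, -0.89 for DKK1, -0.85 for CFB, -0.80 for CEACAM5, -0.79 for CD74, -0.69 for TOP2A, -0.62 for CENPF, -0.62 for KRT80, -0.49 for CDK4 and -0.31 for PHLDA1. Of these 39 genes, 12 were called under every alternative. With 2 libraries per group, no group was large enough to search for single outlying libraries.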

How the results depend on the processing

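Under palbociclib plus erlotinib the counts of genes higher and lower in H1047R stayed within 1.5 times the reported 2485 and 4120 in every alternative, with 4717 to 7908 calls in all when 1 library was left out. Of 180 genes named for this comparison, HLA-DQA1 not among them, 161 kept direction and call in every alternative. Many of these genes were named for large called differences in these same data, so the 161 of 180 do not describe the other called genes. Signs turned for CCND1 with quantile normalization (0.0253) and median-centring (0.0539), and for KRT19 and KRT8 with median-centring (0.0076 and 0.0032), all of them uncalled. Of the list counts, taken over this comparison and the change with erlotinib together, 121 of the alternative values moved by over 1.5 times and 1263 did not.

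The change with erlotinib was least stable. Against 112 upward, 158 downward and 270 in all, there were 45, 67 and 112 with no filter, and 62, 83 and 145 with no intensity trend. Leaving out 1 library gave 14 to 897 upward, 18 to 1182 downward and 34 to 2079 in all. In the first table the same step gave 779 to 5134 calls under palbociclib (2053 reported) and 1464 to 1546 in conditioned medium (2533 reported). The cause was not tested.

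With a replicate block, 2358 genes were higher and 3948 lower under both drugs, 2565 and 3595 under palbociclib alone, and the change with erlotinib was called in 68 genes upward and 73 downward, 141 in all. The numbers did not pair the samples: deviations of same-numbered libraries of the 2 lines correlated across genes at 0.026 under both drugs and -0.1 under palbociclib alone.

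Depth is unknown, as the values are FPKM, so counting error and the limit behind a value of 0 cannot be given. The residual degrees of freedom were 4, and where 1 library was left out the remaining one was assumed to vary like the other groups.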
